A study of Mus musculus with 72 samples.

Results

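Chromosome 13 carried 867 of the 17857 mapped integrations of a barcoded reporter gene in mouse embryonic stem cells, and these 867 are described here along the chromosome. They are all integrations listed on that chromosome, whatever their values, but the chromosome was singled out with its narrow spread already known. The other 16990 integrations, on the other chromosomes, are the comparison. The cells were of the EBRTcH3 embryonic stem cell line, in which Rosa26 drives a transactivator controlled by tetracycline, and were cultured with leukemia inhibitory factor and inhibitors of MEK and GSK-3. Cells were sorted for low eGFP after transfection, and 6 small pools named mPGK-A to mPGK-F were grown from them. All 6 pools carried the same reporter and there was no untreated or reporter-free group. Each pool was split into 2 cultures, which are technical replicates, and each culture gave barcode counts from RNA and from genomic DNA (72 libraries in all, counting the mapping of sites).

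The assay, known as TRIP, places many copies of a reporter in the genome at once, each marked by its own random barcode, so that the output of each copy can be read from a pool of cells. The copies here were inserted by piggyBac, a transposon that integrates at TTAA sites, and were driven by the promoter of mouse phosphoglycerate kinase (mPGK), a housekeeping gene of glycolysis that is active in nearly all tissues. Differences between identical copies are known as position effects: surrounding chromatin, such as active genes and enhancers on the one hand and heterochromatin or lamina-bound DNA on the other, is known to raise or lower the output of a reporter. Integrations were not placed relative to genes or chromatin here, since positions are those of the mm9 build and no annotation of that build was used.

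Expression is the share of a barcode among RNA reads over its share among DNA reads, on the log2 scale, averaged over both cultures and given relative to the median of all integrations of its pool. A value of 0 is thus the output of the median reporter of the pool, and 1 is a 2-fold higher output. Counts summed to between 3386477 and 3693449 DNA reads and to between 2880244 and 3508366 RNA reads per pool and culture. Chromosome 13 took 4.21% to 5.34% of the DNA reads and 2.76% to 4.64% of the RNA reads of a pool and culture. Over both cultures, the median integration had 1641 DNA reads on chromosome 13 and 1672 elsewhere, and 422 RNA reads on chromosome 13 and 559 elsewhere. The error SD of a culture was 0.75 on chromosome 13 and 0.78 elsewhere. The cultures ranked the integrations of chromosome 13 with a Spearman rho of 0.917, against 0.941 on the other chromosomes, across integrations that are not independent replicates.

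The integrations with the highest and lowest output on the chromosome show how far identical reporters lay apart. The barcodes of the 5 highest and the 5 lowest are given because the barcode is what was counted. Each is the random stretch of the reporter as listed, in capitals throughout since no part of it was singled out.
mPGK-D 96369617 minus strand, highest: CTGCAATACCGCAGAT
mPGK-D 29370493 plus strand, high: GGAAACATCTGTACCA
mPGK-A 115070144 minus strand, high: AGAGCAGAATTGTTCT
mPGK-D 23833752 plus strand, high: TTACAGATATAACTAG
mPGK-C 59784253 minus strand, high: AGGAATGCATAAAAGA
mPGK-A 111151354 minus strand, low: ACCCTTGACGAGTGCT
mPGK-D 82277215 minus strand, no RNA read: ACGATTCTCTCCAAAG
mPGK-C 95774295 minus strand, low: GAAATTAAAACCCAGT
mPGK-A 108636412 minus strand, no RNA read: GTTATTCAAGACCTAA
mPGK-A 30022970 minus strand, low: TGGAATATCCCTGCAC

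The highest reporter, at 96369617, had 10379 and 11658 RNA reads in the cultures from 1386 and 1651 DNA reads. Its expression was 4.59 and 4.45, or 23.6-fold above the median of mPGK-D. The other 4 of the highest 5 lay between 4.38 and 4.50, so the top of the chromosome was flat, and 3 of the 5 came from mPGK-D. The fifth highest, at 59784253, rests on 181 and 140 DNA reads, fewer than the others. The lowest reporter by expression, at 111151354, gave 0 and 6 RNA reads from 7862 and 8830 DNA reads. Its log2 ratio fitted by edgeR was -9.85. That ratio rests on the 6 RNA reads of the second culture alone, so it is not a precise value. The integration at 95774295 gave 0 and 14 RNA reads from 3512 and 3267 DNA reads. The cultures of such integrations differ by what a few reads are worth, and their order rests on the pseudocount of 0.5 RNA reads, since integrations with no RNA read have only a bound. No RNA read was counted at 7 integrations (0.807%), against 177 (1.04%) on the other chromosomes. Of these 7, the one at 82277215 had the most DNA reads, 1025 and 975, and lay at least 207-fold below its pool median when its RNA is set to a floor of 3 reads in both cultures together. The one at 108636412, with 344 and 423 DNA reads, lay at least 86.8-fold below. The remaining 5 had 109 to 358 DNA reads, 3 in mPGK-B and 2 in mPGK-E. Floors cover counting error only, since reads copied by PCR are not independent molecules.

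Fewer reporters on chromosome 13 were called above the median of their pool than in the whole set. Slightly more were called below it, though not in every pool. When the RNA counts of each barcode were tested against its DNA counts, pool by pool (edgeR quasi-likelihood test, Benjamini-Hochberg adjustment over all 17857 integrations at 0.05), 271 of the 867 were called higher (31.3%), where 37.0% were called higher among all integrations. Lower calls numbered 319 (36.8%), where 33.6% were called lower among all integrations, and 277 (31.9%) passed in neither direction. The share called higher ran from 28.9% in mPGK-C to 34.7% in mPGK-A on chromosome 13, against 36.3% in mPGK-D to 38.4% in mPGK-F on the other chromosomes, and the pools of the 2 sets did not overlap. The share called lower ran from 32.3% in mPGK-E to 42.1% in mPGK-A on chromosome 13, against 32.5% in mPGK-D to 34.9% in mPGK-F elsewhere, and here they overlapped. In mPGK-E and mPGK-F this share was smaller on chromosome 13 than elsewhere (32.3% against 33.4%, and 34.7% against 34.9%). The smallest differences called were 0.44 above and -0.54 below the pool median. The median called reporter was 1.72 above or -2.11 below it. Because the cultures are technical replicates, the p-values cover no spread beyond that between the cultures of a pool.

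The reporters of chromosome 13 spread over a narrower range than those of the other chromosomes in all 6 pools. The SD between integrations was 2.34, 2.18, 2.15, 2.22, 1.98 and 2.03 on chromosome 13 in mPGK-A to mPGK-F, against 2.39, 2.39, 2.54, 2.51, 2.48 and 2.34 on the other chromosomes. The difference was small in mPGK-A and largest in mPGK-E. It averaged -0.29 ± 0.16 (SD, n = 6 pools). The narrow spread was known when the chromosome was chosen, so it is given as a description, with no test. Over all pools together, the SD of chromosome 13 was 2.14, the lowest of the 19 autosomes. By the interquartile range in place of the SD, the difference averaged -0.34. Over all pools together, that range was 2.74, the 2nd lowest of the 19 autosomes after 2.64 on chromosome 19.

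Chromosome 13 combined a lower level with a narrower range, so the sets lay apart at the upper end and close together at the lower end. Its 95th percentile lay at 2.66, the lowest of the 19 autosomes, against 3.44 on the other chromosomes, whereas its 5th percentile lay at -4.15 against -4.44. Measured from the median of each set, both ends were nearer: the 95th percentile was 2.85 above it on chromosome 13 and 3.42 elsewhere, and the 5th was -3.96 from it on chromosome 13 and -4.45 elsewhere. Chromosome 13 minus the other chromosomes was 0.32 ± 0.46 at the 5th percentile, -0.11 ± 0.21 at the 25th, -0.22 ± 0.18 at the median, -0.45 ± 0.14 at the 75th and -0.81 ± 0.16 at the 95th percentile (mean and SD over 6 pools). From the median upward the chromosome was lower in 6 of 6 pools, and at the 5th and 10th percentiles it was lower in 2 of 6. The mean difference was -0.24 ± 0.09, from -0.38 in mPGK-A to -0.12 in mPGK-E (mean expression -0.41 on chromosome 13 and -0.17 elsewhere, n = 6 pools; exact two-sided permutation test, p = 0.03125, adjusted p = 0.0375), and since a lower level was known from these data, this is no independent support. Over all pools together, the mean of chromosome 13 was only the 5th lowest of the 19 autosomes, so a lower level is not particular to it. Chromosome 14 was lowest with -0.55. Of the 867 reporters, 106 (12.2%) lay over 4-fold above their pool median, against 17.8% elsewhere, while 175 (20.2%) lay over 4-fold below it, against 20.1% elsewhere.

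Reporters over 16-fold above the median were scarce. There were 8 of them on chromosome 13 (0.923%, the lowest share of the 19 autosomes), with 1, 0, 1, 5, 1 and 0 in mPGK-A to mPGK-F, against 433 (2.55%) on the other chromosomes. By pool, the share was 0.868% ± 1.06 on chromosome 13 and 2.54% ± 0.427 elsewhere (SD, n = 6 pools), and it was lower on chromosome 13 in 6 of 6 pools, by 2.25 percentage points at most in mPGK-B and by 0.303 at least in mPGK-D. The difference averaged -1.68 ± 0.73 percentage points, given with no test since it measures the same known spread. Over 16-fold below the median lay 50 integrations of chromosome 13 (5.77%), 4 to 10 per pool, against 6.52% elsewhere, and the chromosome was lower in 3 of 6 pools. Without the reporters over 16-fold above the median, the SD was 2.10 on chromosome 13 and 2.34 elsewhere. Without those over 16-fold below it, the SD was 1.78 on chromosome 13 and 1.97 elsewhere, and without both tails it was 1.73 on chromosome 13 and 1.85 elsewhere. Leaving out either tail thus brought the SDs closer, the low tail more so.

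**Figure D1:**
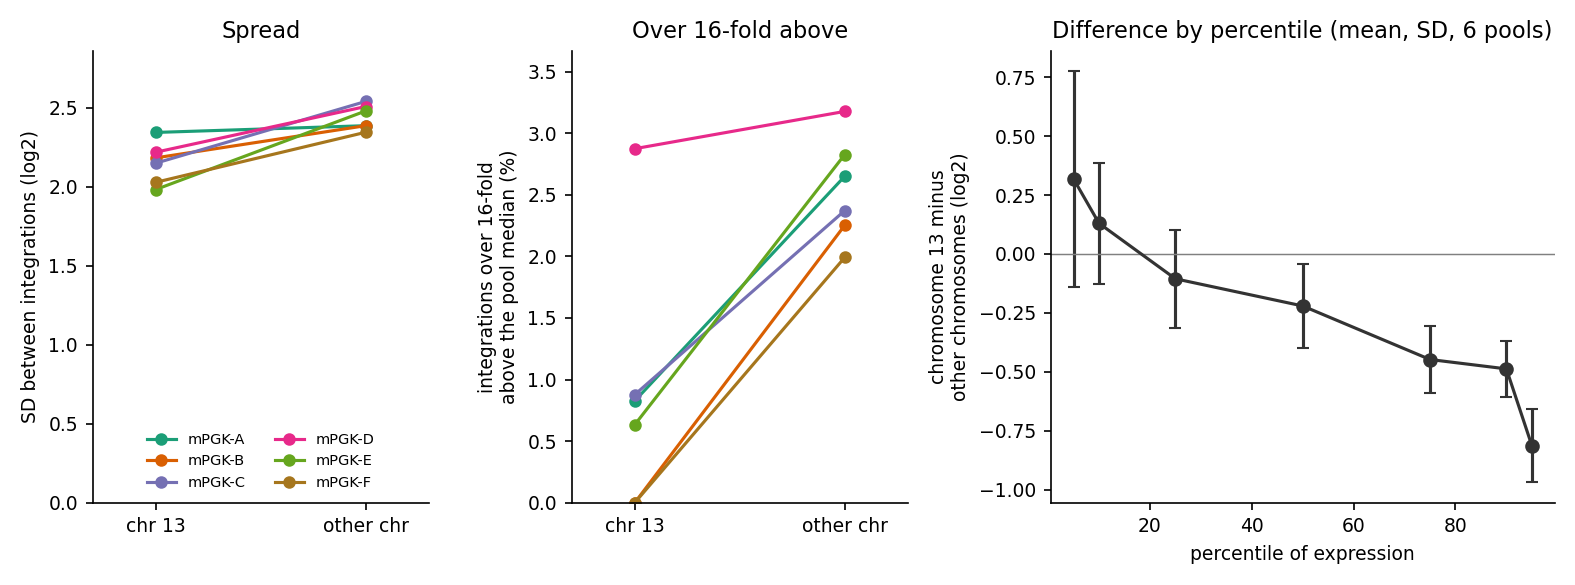
SD of expression between integrations (left, log2) and percentage of integrations over 16-fold above the pool median (middle), for chromosome 13 and the other chromosomes, with a line per pool; right, chromosome 13 minus the other chromosomes at 7 percentiles of expression (log2, mean and SD over 6 pools). All 6 lines slope up to the other chromosomes in the left and middle panels, and the difference runs from 0.32 at the 5th to -0.81 at the 95th percentile.

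The landscape along the chromosome was shallow. Integrations ran from 3525572 to 120198482, a span of 116.67 Mb, with 7.43 integrations per Mb (the 11th lowest density of the 19 autosomes). Over the other chromosomes, integrations averaged -0.17, so a mean below the pool median is not particular to chromosome 13. Of the 12 stretches of 10 Mb with at least 20 integrations, 11 had a mean below the pool median. The exception was 50000001 to 60000000, where 107 integrations averaged 0.23 with an SD of 1.59. There 5 of 6 pools lay above 0, with means of 0.46, 0.03, 0.37, -0.25, 0.47 and 0.33 in mPGK-A to mPGK-F. The lowest stretch was 80000001 to 90000000, where 46 integrations averaged -1.35. There the pool means were -1.21, 3.98, -0.98, -2.77, -1.70 and -0.71, and the value of mPGK-B was that of a single integration. The stretch from 10000001 to 20000000 held no integration of mPGK-A among its 50, and all of the other 5 pools lay below 0 in it. Pools did not always point the same way: from 90000001 to 100000000, mPGK-D averaged 0.99 over 25 integrations and mPGK-C averaged -2.13 over 14.

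Single windows of 2 Mb more often had a mean below the pool median than above it. Of 60 windows, 58 held at least 5 integrations (5 to 39, median 13), and 17 of these had a mean above the pool median and 41 below it. The highest was 22000001 to 24000000, where 18 integrations averaged 1.08 ± 2.05 (SD between integrations) and the means of all 5 pools present were above 0, from 0.55 in mPGK-A to 2.20 in mPGK-E, where it was a single integration. It was the only window of the 58 over 2-fold above the median, and 16 were over 2-fold below, but with the window moved by 1 Mb its mean was 0.28. Next came 114000001 to 116000000 with 31 integrations and a mean of 0.75, and 54000001 to 56000000 with 22 integrations and a mean of 0.72. In both of these 4 of 6 pools lay above 0. The window from 114000001 had a mean of -0.0044 when moved by 1 Mb and of 0.48 without mPGK-E. The window from 54000001 had 0.43 without mPGK-F and 0.46 without mPGK-E. A few very low integrations can pull a window mean down. The window from 94000001 averaged -0.90 with a median of 0.33, and 5 of its 26 integrations lay over 16-fold below the pool median. The windows of other chromosomes were not counted in this way.

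The lowest windows were thinly filled. From 116000001 to 118000000, 6 integrations of 4 pools averaged -3.23, and every one was called lower. The pool means were -2.91, -6.62, -2.71 and -2.12 in mPGK-A to mPGK-D, and mPGK-E and mPGK-F had no integration there. The value of mPGK-B was that of a single integration with no RNA read, and without mPGK-B the mean was -2.55. This window adjoined the second highest one of the chromosome, and moved by 1 Mb its mean was -0.19. From 86000001 to 88000000, 7 integrations of 5 pools averaged -2.94, again all called lower, with none from mPGK-B. From 26000001 to 28000000, 7 integrations averaged -2.35, with 4 of 5 pools below 0 and the single integration of mPGK-C at 2.91. Over the 58 windows, the mean of a window and its number of integrations had a correlation of 0.469, as a description over windows that share pools and libraries.

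**Figure D2:**
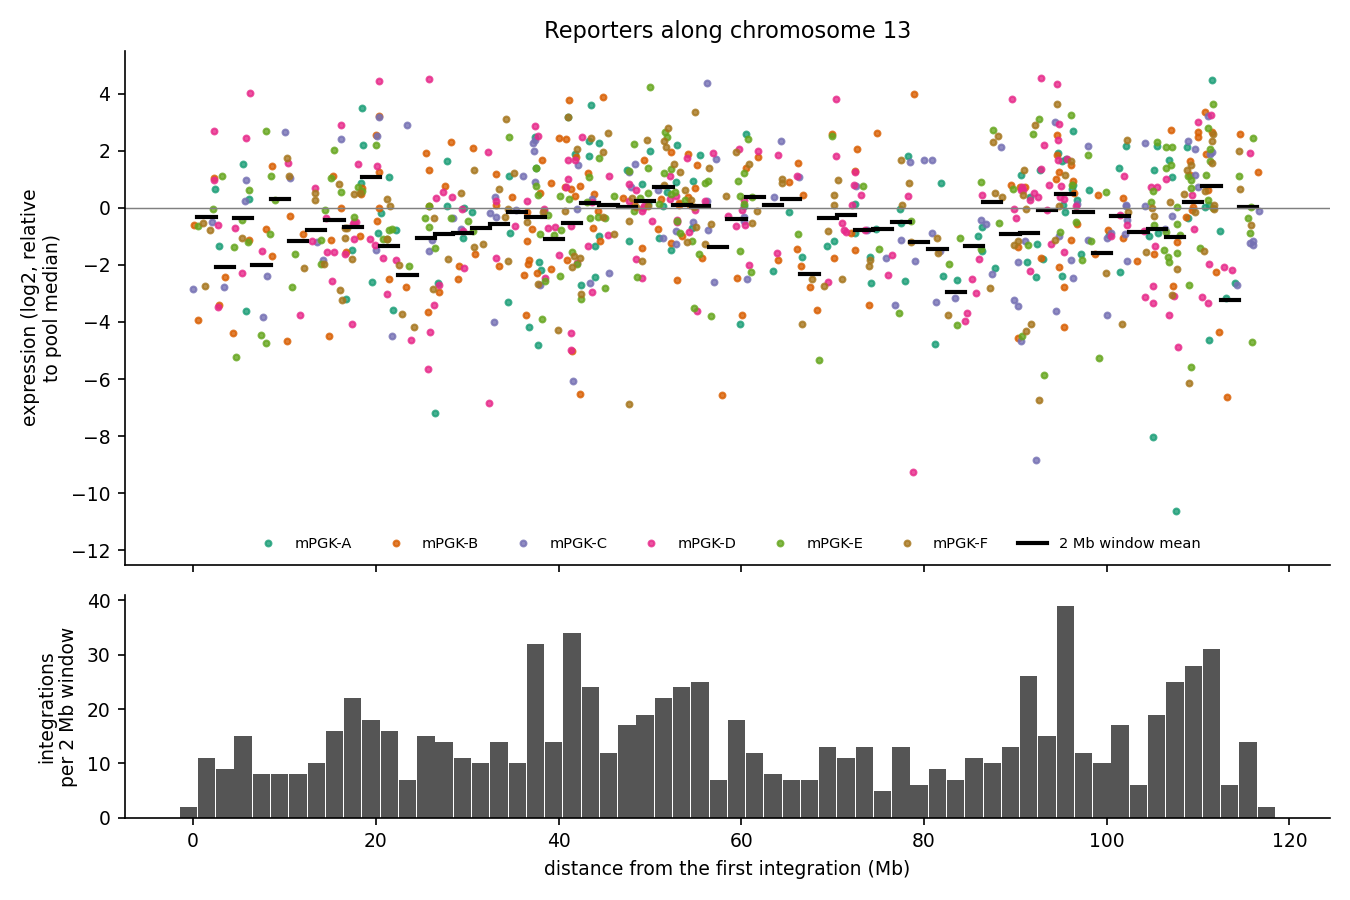
Expression of each of the 867 integrations (log2, relative to the pool median, a point each, coloured by pool) against its distance from the first integration of chromosome 13, with black bars for the means of 2 Mb windows of at least 5 integrations; below, the number of integrations per 2 Mb window. Only 1 window mean lies above 1, and the lowest window means lie near -3 in sparsely filled windows.

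Most of the variance on chromosome 13 lay within windows, and little lay between them. The SD between 2 Mb windows, as a variance component, was 0.56 on chromosome 13, the lowest of the 19 autosomes, against 1.02 over the other chromosomes. Chromosome 19 was next with 0.81, and chromosome 14 was highest with 1.23. The SD within windows was 2.07, the 2nd lowest after 2.05 on chromosome 19, against 2.21 over the other chromosomes. Windows thus held 6.75% of the variance on chromosome 13 and 17.6% on the others. Error between cultures made up 6.18% of the variance on chromosome 13 and 5.09% elsewhere. Components are given as a description, with no test.

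**Figure D3:**
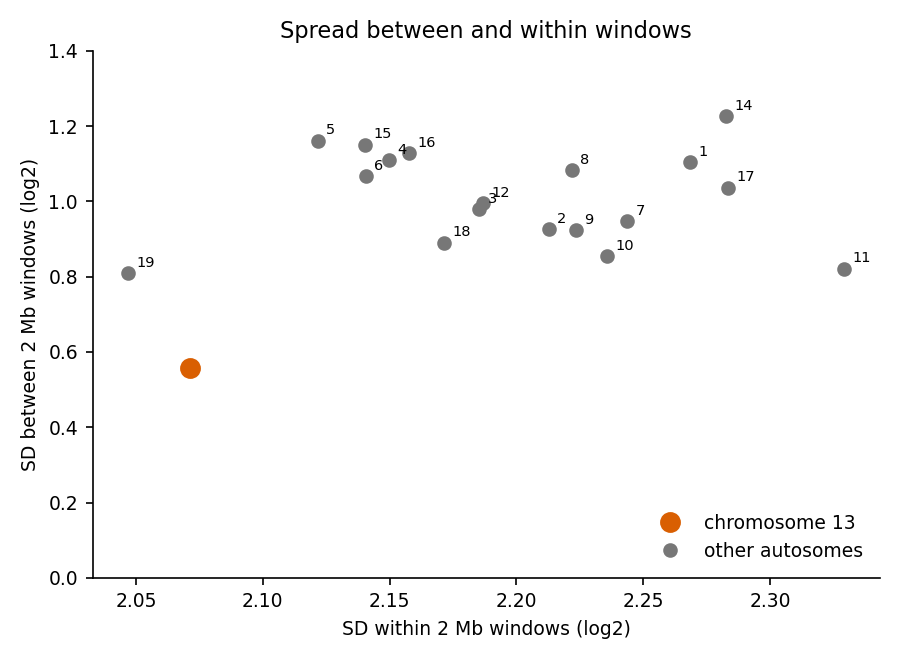
SD of expression between 2 Mb windows (vertical axis, log2, as a variance component) against the SD within them (horizontal axis, log2, not starting at 0) for the 19 autosomes, numbered by chromosome. Chromosome 13 lies lowest at 0.56 between windows and has a low SD within windows, 2.07.

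The shallow landscape was still shared between pools. For each pool, windows were classed as high or low from the other 5 pools only. The classing pools are thus shared between the 6 values, which are not fully independent. Integrations in windows classed high averaged -0.11 and those in windows classed low averaged -0.76 (454 and 409 integrations). The difference was 1.05, 0.71, 0.31, 0.43, 0.53 and 0.83 in mPGK-A to mPGK-F, above 0 in 6 of 6 pools, with a mean of 0.64 ± 0.27 (SD, n = 6 pools; exact two-sided permutation test, p = 0.03125, adjusted p = 0.0375). With 1 Mb windows it was 1.02 and with 5 Mb windows 0.37, both past the threshold. On the other autosomes the same difference was 1.22 ± 0.10, and chromosome 13 minus the others was -0.57 ± 0.35, below 0 in 6 of 6 pools but only -0.03 in mPGK-A (exact two-sided permutation test, p = 0.03125, adjusted p = 0.0382 over 11 tests). This comparison and those of crowded and isolated sites between chromosomes were added after the data were seen. The narrow spread and the lower level of chromosome 13 were known by then, so none of them is independent support. The comparison of chromosomes did not hold with 1 Mb windows (-0.20, adjusted p = 0.25), and it was -0.33 without mPGK-B.

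Close neighbours from different pools were more alike than distant pairs. An integration and its nearest neighbour of another pool within 20 kb differed by 1.99 on average, and the same 310 integrations differed from those 2 to 10 Mb away by 2.36. The difference was -0.68, -0.54, -0.04, -0.23, -0.32 and -0.44 in mPGK-A to mPGK-F, with a mean of -0.37 ± 0.23 (SD, n = 6 pools; exact two-sided permutation test, p = 0.03125, adjusted p = 0.0375). A pair enters the value of both of its pools. Both members of a close pair have another integration nearby, whereas the distant ones include isolated integrations, which averaged lower. The test cannot tell nearness and crowding apart. The mean was -0.23 without mPGK-A, -0.24 without mPGK-B and -0.24 with neighbours within 100 kb, and the call ended without integrations of fewer than 10 RNA reads (-0.36, adjusted p = 0.075).

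Likeness was short in range on the chromosome. Pairs from different pools had a correlation of 0.341 within 5 kb (69 pairs), 0.136 at 5 to 20 kb (151 pairs) and 0.147 at 100 to 200 kb (695 pairs). At 200 to 500 kb it was 0.0106 over 1964 pairs. On the other chromosomes these values were 0.440, 0.366, 0.162 and 0.133. The curve of chromosome 13 lay below that of the others in all 9 distance classes, and from 200 kb on it was at or near 0. The difference was not tested, and the pairs share integrations, pools and libraries. Distant pairs were closer in value on chromosome 13 as well: at 5 to 20 Mb they differed by 2.34 on average, against 2.67 on the other chromosomes.

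Some neighbours lay far apart in output. The largest difference between adjacent integrations within 5 kb was at 96662831 and 96662832, listed 1 bp apart on opposite strands and in different pools. Their barcodes are given to identify the pair.
mPGK-D 96662831 minus strand: GAACTGCAATCACCAC
mPGK-E 96662832 plus strand: AAATACTCGCAAAGAG
The mPGK-D integration had 738 and 652 RNA reads from 480 and 509 DNA reads, an expression of 2.19. The mPGK-E integration had no RNA read from 53 and 137 DNA reads and lay at least 21.6-fold below its pool median. Both were called, in opposite directions, and the mPGK-E integration rests on few DNA reads (edgeR adjusted p = 0.012). With a pseudocount of 5 RNA reads it stood at -2.58, while the mPGK-F integration at 51221315, 218 bp from an mPGK-D integration at 0.25, stood at -5.07, so which pair differed most may depend on the pseudocount. Of the 76 adjacent pairs within 5 kb, 63.2% lay on the same side of the pool median, and their median difference was 1.28.

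Reporters with many other integrations nearby were higher than isolated ones, though less so than elsewhere. On chromosome 13 the 363 integrations with at least 3 others of any pool within 100 kb averaged -0.05, and the 164 with none averaged -1.06. The difference was 1.00, 1.70, 0.45, 1.20, 1.15 and 0.53 in mPGK-A to mPGK-F, with a mean of 1.01 ± 0.46 (SD, n = 6 pools; exact two-sided permutation test, p = 0.03125, adjusted p = 0.0375). On the other chromosomes the difference was 2.03 ± 0.19. Chromosome 13 minus the others was -1.03 ± 0.48, below 0 in 6 of 6 pools, from -1.57 in mPGK-C to -0.20 in mPGK-B (added comparison, exact two-sided permutation test, p = 0.03125, adjusted p = 0.0382). A smaller contrast goes with the narrow spread that was known from these data, so this is no independent support.

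Crowded sites of chromosome 13 were lower than crowded sites elsewhere. Integrations with at least 3 others within 100 kb averaged -0.05 ± 0.16 on chromosome 13 and 0.65 ± 0.06 on the other chromosomes (SD over 6 pools). The difference was -0.70 ± 0.14, from -0.82 in mPGK-C to -0.45 in mPGK-B (added comparison, exact two-sided permutation test, p = 0.03125, adjusted p = 0.0382). With 3 others within 500 kb it was -0.29. Since a lower level and a narrow spread were known from these data, this is no independent support. Isolated integrations averaged -1.06 ± 0.34 on chromosome 13 and -1.38 ± 0.16 elsewhere, a difference of 0.33 ± 0.36 that was above 0 in 5 of 6 pools and did not pass (added comparison; exact two-sided permutation test, p = 0.09375, adjusted p = 0.103). It passed without the 10% of lowest DNA counts (0.47, adjusted p = 0.043) and with isolation within 50 kb (0.23, adjusted p = 0.0344).

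The most crowded class was nearly absent. Only 6 integrations of chromosome 13 (0.692%) had 7 or more others within 100 kb, against 5.23% on the other chromosomes, and the highest number of others was 8 on chromosome 13 and 15 elsewhere. With 3 to 6 others were 41.2% on chromosome 13 and 35.5% elsewhere, with a mean of -0.04 on chromosome 13 and 0.54 elsewhere. With 1 or 2 others were 39.2% on chromosome 13 and 41.1% elsewhere, with a mean of -0.46 in both sets. Among isolated integrations 6.71% on chromosome 13 and 12.7% elsewhere lay over 16-fold below the median, and their SD was 1.97 on chromosome 13 and 2.43 elsewhere. Among integrations with 3 to 6 others, 1.12% lay over 16-fold above the median on chromosome 13 and 3.96% elsewhere.

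**Figure D4:**
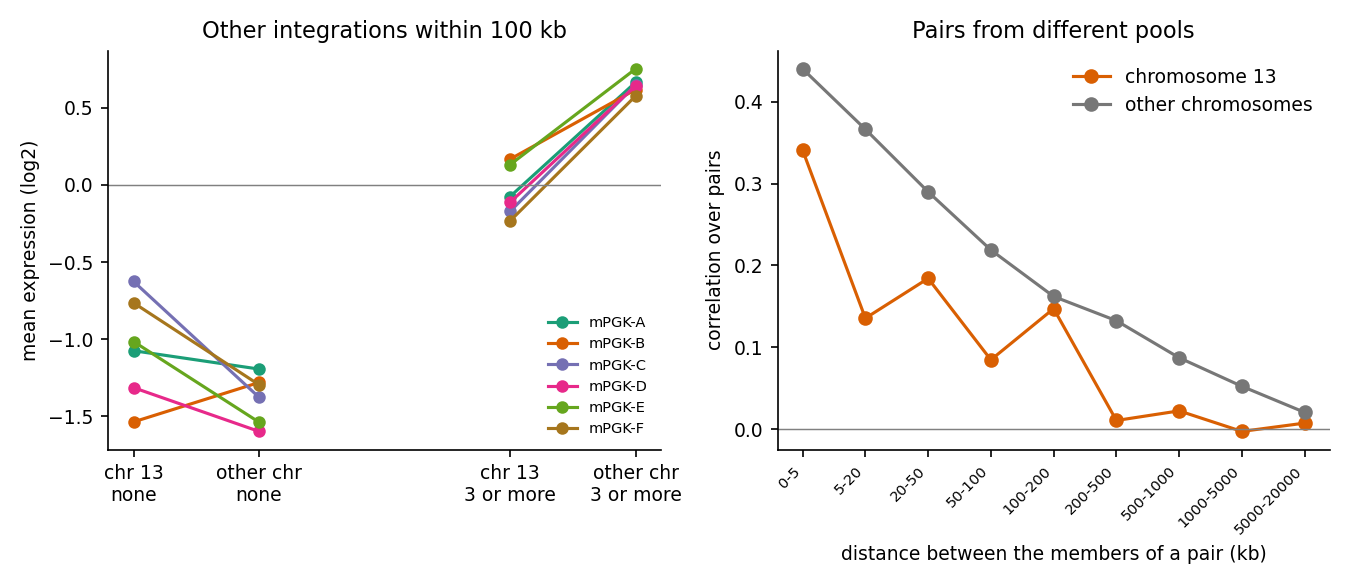
Left, mean expression (log2, relative to the pool median, a line per pool) of integrations with no other and with 3 or more others within 100 kb, on chromosome 13 and on the other chromosomes; right, correlation over pairs of integrations from different pools by distance class (kb). Crowded integrations averaged -0.05 on chromosome 13 and 0.65 elsewhere, isolated ones -1.06 on chromosome 13 and -1.38 elsewhere, and the curve of chromosome 13 lies below that of the others.

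High and low reporters alternated often along the chromosome. Of the 866 adjacent pairs, 56.6% lay on the same side of the pool median, the lowest share of the 19 autosomes, where the others had 59.2% to 65.7%. There were 188 runs above the median, 102 of them a single integration, and 189 runs below it, 92 of them single. Runs of at least 5 integrations numbered 12 above, holding 92 of the 399 integrations above the median, and 21 below, holding 171 of the 468 below it. High runs were short, with a median length of 327 kb, and low runs were long, with a median of 1220 kb. Runs are described without a test.

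The longest high run held 11 integrations from 55012347 to 55802482, over 790 kb. They came from 4 pools, with 1, 2, 4 and 4 in mPGK-A, mPGK-D, mPGK-E and mPGK-F, averaged 1.53 and included 9 called higher. The next held 10 integrations in only 211 kb, from 98052812 to 98263831, with 1, 3, 4 and 2 in mPGK-A, mPGK-B, mPGK-D and mPGK-F. They averaged 2.26, between 0.06 and 4.34, and 9 were called higher. The integrations on either side of this run lay at -3.63 and -2.08, at distances of 38.4 kb and 17.9 kb. Of 4 high runs with 9 integrations, the one from 114821144 to 115070144 held all 6 pools and averaged 2.43, between 1.57 and 4.46, and all 9 were called higher. It ends at the third highest reporter of the chromosome. The other 3 began at 40743742, 52861400 and 114252666, with means of 1.83, 1.37 and 1.55. On the other autosomes the longest high run held 11 to 24 integrations.

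The longest low run held 15 integrations over 4185 kb, from 85615962 to 89801329. They came from 5 pools, with 3, 2, 5, 4 and 1 in mPGK-A, mPGK-C, mPGK-D, mPGK-E and mPGK-F, averaged -2.45 and included 13 called lower. Their density was 3.34 per Mb, against 42.7 per Mb in the high run from 98052812. The next low run held 14 integrations of 5 pools from 19767527 to 21118255, with a mean of -1.57 and 8 called lower. A further 6 low runs held 9 integrations, with means from -2.98 to -1.38. The lowest of these ran from 115465180 to 117796655, held 4 pools and 8 called lower, and began 220 kb after the last integration of the preceding stretch, which lay at 0.09. On the other autosomes the longest low run held 14 to 28 integrations.

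**Figure D5:**
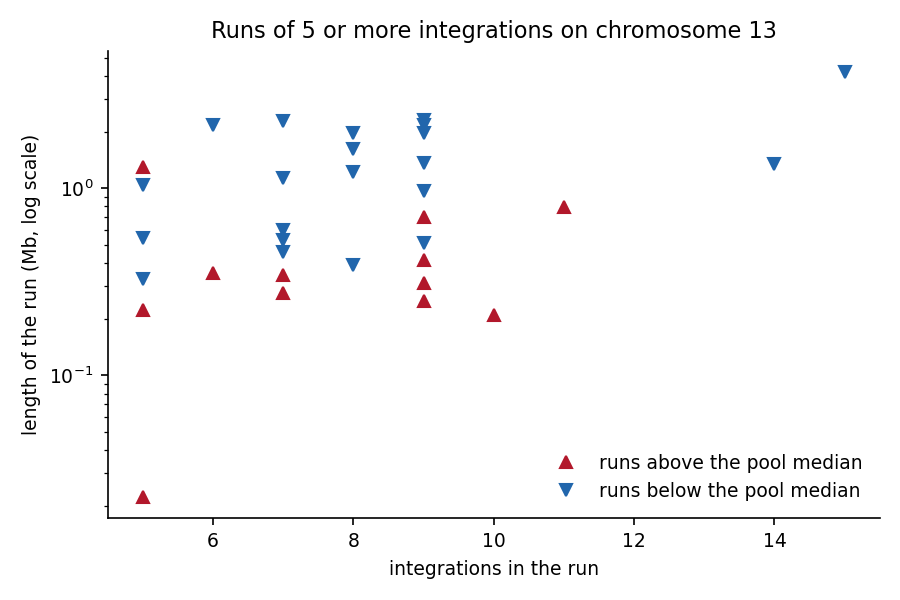
Number of integrations (horizontal axis) and length (vertical axis, Mb, log scale) of the 33 runs of at least 5 integrations on chromosome 13, above and below the pool median. The 12 high runs have a median length of 327 kb and the 21 low runs 1220 kb, and the longest low run spans 4185 kb.

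A least-squares segmentation found no inner edge on chromosome 13. The penalty for each domain was 3 times the natural logarithm of the number of integrations on the chromosome, times a noise variance. That variance came from the differences between adjacent integrations, and each domain held at least 5 integrations. With this penalty of 3, the chromosome was a single domain with a mean of -0.41. The same held with penalties of 2 and 5, with at least 3 integrations per domain, with values limited to 4 on either side, and with each pool or culture left out. At the penalty of 3, each of the other 18 autosomes had 2 to 10 domains (median 5), and at the penalty of 2 they had 3 to 18. At the penalty of 5, 6 of these 18 were single domains as well. Segments are chosen on the values, so the comparison is a description.

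At a penalty of 1, added after the data were seen, the chromosome fell into 23 domains, where the other autosomes had 15 to 43 (median 29.5). They were 0.211 to 24.6 Mb long, with a median of 2.33 Mb, and held 5 to 209 integrations. Means ran from -3.77 to 2.26, 11 above the pool median and 12 below it. The longest, from 45284754 to 69861128, held 209 integrations of all 6 pools at a mean of 0.06. The 3 highest domains were those from 98052812 to 98263831 (2.26), from 114821144 to 115245234 (2.01) and from 40743742 to 41055188 (1.83). The lowest were those from 95746843 to 96128769, with 5 integrations of 4 pools and a mean of -3.77, from 44858946 to 45249382, with 8 of 5 pools and -3.30, and from 110782369 to 111333721, with 9 of 5 pools and -2.98. The domain from 115465180 to 117796655 also had -2.98. All 3 of the highest domains and the 2 lowest were shorter than 0.5 Mb. How many domains this penalty would give in values without any edge was not measured. Domains and steps named here were picked for being extreme, so their sizes are likely overstated.

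Each edge of this segmentation fell in the gap between neighbouring integrations, and how far an edge could move was not measured. The gaps at the 22 edges were 0.104 to 423 kb wide, with a median of 98.6 kb, and 11 were narrower than 100 kb. The largest step was -4.99, between the domain ending at 115245234 and the low domain beginning at 115465180, across 220 kb. The second was -4.74 across 11.3 kb, between 44847641 and 44858946. The 8 integrations after it averaged -3.30, of which 7 were called lower, and the 11 before it, of 5 pools, averaged 1.43. The third was 3.89 across 16.8 kb, between 96128769 and 96145598. The 15 integrations of all 6 pools after it averaged 0.12 and the 5 before it averaged -3.77. The low domain before this edge holds the integration at 95774295 with 14 RNA reads, and its SD was 3.87.

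The longest gaps on chromosome 13 were short for an autosome. The 866 gaps between neighbouring integrations had a median of 67.2 kb, within the 50.6 to 77.1 kb of the other autosomes, and the shortest was 1 bp. The longest was 1723 kb, between 65307617 and 67031076, and 16 of the 18 other autosomes had a longer one. It was flanked by an mPGK-B integration at 1.77 and an mPGK-A integration at -2.20, called higher and lower. The second was 1220 kb, between 9762268, an mPGK-D integration at 4.03, and 10981937, an mPGK-E integration at -4.46, again called in opposite directions. The third was 1122 kb, from 27746502 to 28868947, with -4.19 in mPGK-F and -0.36 in mPGK-E on its sides. The fourth was 1108 kb, from 12445060 to 13553036, with 0.28 in mPGK-E and 2.65 in mPGK-C on its sides. The fifth was 1062 kb, from 92023127 to 93084803, with 0.37 in mPGK-F and 0.80 in mPGK-B. Reporters on the 2 sides of a long gap thus differed widely in some cases and little in others.

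Integrations beside long gaps averaged lower than the rest of the chromosome. In all, 51 gaps over 500 kb made up 32.4% of the span. The 98 integrations flanking them averaged -0.93 ± 2.07 and the other 769 averaged -0.34 ± 2.15 (SD between integrations, no test). Of the 98, 44.9% were called lower, against 36.8% over the chromosome and 33.6% over all integrations. Higher calls made up 21.4% of them, against 31.3% over the chromosome and 37.0% over all integrations. Gap length and the number of others within 100 kb measure the same spacing, so these values are no separate evidence.

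The difference between strands did not pass the test. The 402 integrations on the plus strand averaged -0.32 and the 465 on the minus strand -0.49. Plus minus minus was 0.71, 0.16, -0.17, 0.10, 0.22 and -0.05 in mPGK-A to mPGK-F, with a mean of 0.16 ± 0.30 (SD, n = 6 pools; exact two-sided permutation test, p = 0.25, adjusted p = 0.25). The mean was 0.05 without mPGK-A. Expression on chromosome 13 had a correlation of 0.0328 with the GC content of the barcode and of -0.00969 with the log DNA count, across its 867 integrations. Barcodes listed in more than 1 pool numbered 47 on chromosome 13 (5.42%), against 5.75% on the other chromosomes.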

How the data were processed

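Barcoded mPGK reporters were counted in 6 pools of EBRTcH3 cells. Per the labels' protocols, barcodes were amplified from reverse-transcribed RNA and from genomic DNA of 2 cultures per pool, in 2 PCRs each, and sites were mapped by inverse PCR. Bowtie2 2.0 and the mm9 build are named in the submitters' processing notes. The deposited values are raw counts of reads per barcode and culture, per the file headers. How the counts of the PCRs were combined, which barcodes were kept, and whether positions start at 0 or 1 are not given in the sources used here. Bounds of windows are counted from 1.

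Expression was computed with a pseudocount of 0.5 RNA reads, from the share of the summed counts of the listed barcodes, as the mean of both cultures minus the pool median. Pools were the samples of all tests of single values: a difference was computed in each pool, and its sign was flipped over pools (exact, two-sided), with Benjamini-Hochberg adjustment over 6 planned tests, or over 11 with the 5 added ones. The smallest p is 0.03125 with 6 pools and 0.0625 with 5. RNA and DNA counts were compared by the quasi-likelihood test of edgeR 4.0.16 (R 4.3.3, TMM scaling, shifted to a median ratio of 0 in each pool, which lay between -0.274 and -0.227 before). Its low-count filter removed 0 barcodes. RNA and DNA with the same number come from the same culture, per the labels, and their deviations correlated from -0.00213 to 0.0575 across barcodes. DESeq2 1.42.0, other scalings, other pseudocounts, filters, windows and distances, and leaving out pools and cultures were alternatives. Scripts were tested on simulated data. Python 3.11.15, numpy 2.4.6, pandas 2.3.3 and scipy 1.17.1 were used.

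Named were the 5 highest and 5 lowest integrations, the 3 highest and lowest windows and domains, the 3 longest runs on each side with ties, the 3 largest steps, the 5 longest gaps and the adjacent pair with the largest difference. Bins, stretches and pools that stood out among these were named after their values were seen. The chromosome, its members and the comparisons were chosen with earlier results of these data known, among them the narrow spread, whose planned test counts in the adjustment but is not reported as one.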

Additional observations from a re-analysis of the deposited data

Results flagged for a closer look

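In 42 sets of 4 to 6 pool values on chromosome 13, some of which share values, 2 pool values lay far from the other 5 (Dixon's test at 95%, by which about 1 in 20 sets is picked out by chance). The share of integrations over 16-fold above the pool median was 2.87% in mPGK-D, where the other pools had 0% to 0.877%. In the stretch from 80000001 to 90000000, mPGK-B stood at 3.98, where the other pools lay between -2.77 and -0.71. That value is 1 integration.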

How the results depend on the processing

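The level, the landscape shared between pools, the local density effect and the comparisons of crowded sites and of the density effect with other chromosomes kept their direction and stayed past the threshold under every alternative that used all 6 pools. A test of 6 pools passes only where all of them agree in sign. For the level and the comparisons with other chromosomes a pass is no independent support, since the lower level and narrow spread were known. Without the 10% of lowest DNA counts, the spread was -0.31, the share over 16-fold above -1.58 percentage points and the level of isolated sites 0.47 (exact permutation test, adjusted p = 0.043, past the threshold). The spread was -0.26 without barcodes listed in several pools and -0.34 by the interquartile range. Neighbours differed by -0.36 without integrations of fewer than 10 RNA reads, the landscape comparison with other autosomes was -0.20 with 1 Mb windows, and isolated sites within 50 kb stood 0.23 higher on chromosome 13. At a domain penalty of 1 there were 23 domains in place of 1. Moved by 1 Mb, the window from 114000001 had -0.0044, that from 22000001 had 0.28 and that from 116000001 had -0.19, and the other 3 named windows lay between -2.98 and 0.59. Over the alternatives with 6 pools, adjusted p (exact permutation tests) ran from 0.0375 to 0.075 for neighbours, from 0.0382 to 0.25 for the landscape comparison and from 0.0344 to 0.344 for isolated sites. Why these values moved was not tested. With 5 pools no test can pass. Leaving out a pool or a culture gave -0.26 to -0.21 for the level, -0.34 to -0.25 for the spread, 0.55 to 0.80 for the shared landscape, -0.49 to -0.23 for neighbours and 0.81 to 1.05 for local density. It gave -0.80 to -0.68 for crowded sites, 0.17 to 0.38 for isolated sites, -1.18 to -0.90 for the density comparison, -0.63 to -0.33 for the landscape comparison, -1.95 to -1.46 for the share over 16-fold above and 0.05 to 0.23 for strand. The longest gap ran from 1723 to 2271 kb. With a replicate block (cultures paired), edgeR called 264 higher and 311 lower, and 567 of the 590 calls were shared, all in the same direction. DESeq2 called 267 higher and 322 lower, and TMM without the shift 225 and 361. Low RNA counts limit the values of the lowest integrations, which depend on the pseudocount. The local density effect has no value at 500 kb, since some pools had no integration alone within that distance.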
